A study of Bos taurus with 32 samples.

Results

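The adrenal libraries of 4 calves from in vitro produced embryos (IVP) and of 4 calves from embryos conceived in vivo (MOET) were compared, 8 of the 32 libraries in the series. The tissue and the embryo origin of each library are those its label gives. All 8 calves were Holstein males, and each gave 1 poly(A)-selected library per tissue. IVP calves 3208, 3209, 5833 and 5841 were 98 to 103 days old, and came from embryos produced in vitro. MOET calves 3217, 3218 and 5932 were 102 to 104 days old and MOET calf 3213 was 144 days old, and they came from embryos conceived by insemination of superstimulated donors. Embryos of both kinds were carried by synchronized recipient cows, and the MOET calves were the controls. Total counts per adrenal library ran from 17357283 to 19483453 over 27607 Ensembl gene IDs.

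The adrenal gland joins 2 endocrine tissues. Its cortex makes glucocorticoids, mineralocorticoids and androgen precursors from cholesterol under the control of pituitary ACTH and of angiotensin, and its medulla holds chromaffin cells that store and release catecholamines. A whole-gland library mixes cortex, medulla, capsule, vessels and blood cells, so fewer cells of a type and less RNA per cell cannot be told apart in it. None of the 27607 IDs could be matched to a gene symbol with the tables used here. Genes are therefore described by count level, by the tissue in which they are most read and, for 4 of them, by ID. The labelled tissue could not be checked against cell type markers, and the tissue classes used below rest on the labels themselves.

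Adrenal IVP 5833 and adrenal MOET 3213 stood apart from the other 6 adrenal libraries because they lay almost exactly at the mean of their own group. For each library, the squared deviation of a gene from the scaled mean count of the other 3 libraries of its group was divided by the variance that counting alone gives. Over genes with a mean of at least 100 counts, counting alone gives a median of 0.455 for this ratio. The median was 0.0160 in MOET 3213 (11469 genes) and 0.106 in IVP 5833 (10877 genes), and 1.57 to 18.1 in the other 6. In MOET 3213 95.1% and in IVP 5833 88.6% of these genes lay within 1 counting SD of that mean, where counting alone gives 68.3% and the other 6 libraries had 11.5% to 41.5%. The deposited counts of these 2 libraries thus scattered less around their group's other libraries than separately counted reads do. MOET 3213 did so in each of its 4 tissues, with medians of 0.00226 to 0.0661, while the remaining 27 libraries of the series had medians of 1.04 to 41.0.

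**Figure D1:**
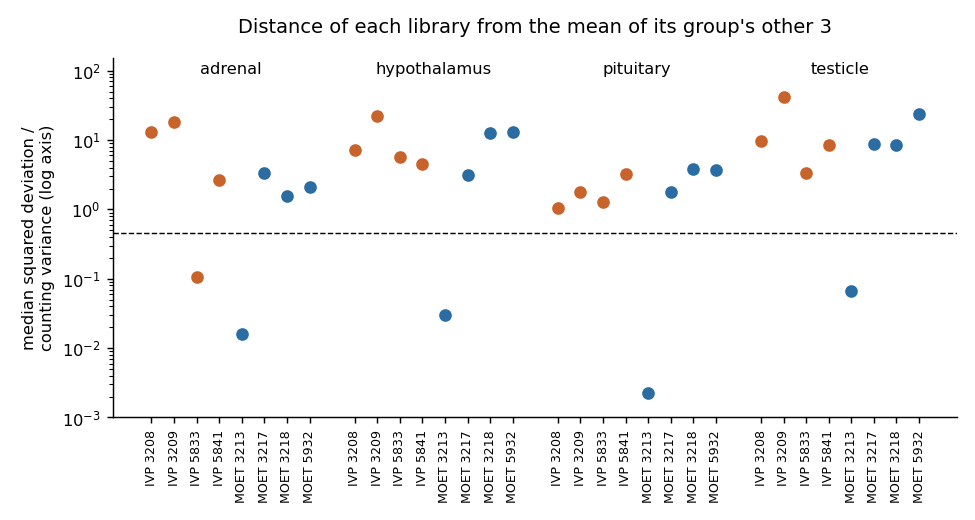
Median squared deviation of genes from the mean of the other 3 libraries of the group, over counting variance, on a log axis, for the 32 libraries (orange IVP, blue MOET); the dashed line is the 0.455 that counting alone gives. MOET 3213 in the 4 tissues and IVP 5833 in the adrenal lie below the line, and the other 27 libraries lie above it.

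The same 2 libraries also lacked genes that the others of their group carried. IVP 5833 had 0 counts for 77 genes, and MOET 3213 for 108, that had at least 20 counts in each of the other 3 libraries of the group. In the 27 other libraries of the series there were at most 24 such genes. Because the 2 libraries add little variation of their own, the results below are given for all 8 libraries and for the 6 libraries without them, which leaves 3 calves against 3. Means ± SD with n = 3 are over those 6. The cause of the small scatter was not tested, and the submitters' sources used here do not describe it.

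The count of genes called between IVP and MOET adrenals varied widely with the libraries and the test used. With all 8 libraries, 6068 of 15437 genes passed (39.3%), 3205 higher in IVP (20.8%) and 2863 lower (18.5%), by the quasi-likelihood test of edgeR at a Benjamini-Hochberg adjusted p of 0.05. Without both, 2 of 15595 genes passed (0.0128%) and 4773 had an unadjusted p under 0.05 (30.6%). The DESeq2 Wald test on the same 6 libraries called 2508 genes, 1377 higher and 1131 lower. Signed by the direction of the 8-library call, the log2 fold changes of these 6068 genes had a median of 0.55 with all 8 libraries and of 0.55 without the 2. Libraries at the mean of their group leave fold changes in place when dropped, so this near-equality is no sign of stability. Their median SE was 0.13 with 8 and 0.19 with 6 libraries. With the score of each library on the shared axis of within-group deviations in the other tissues as a covariate, 3 genes were called. The median for the 6068 genes was then 0.13, and 83.7% of them kept their sign. That score itself differed by origin without overlap, at -0.05 to 0.41 in IVP and -0.29 to -0.10 in MOET libraries. Adjusting for it therefore also takes out origin, and the 2 cannot be cleanly told apart. Removing 1 calf of the 8 left 2521 calls for IVP 5833 and 3253 for MOET 3213. It left 2424 for MOET 3218, 3098 for MOET 5932 and 4000 for IVP 5841. No other pair of calves was dropped together from the 8. Among the 6 libraries, edgeR called 4794 genes when IVP 3208 was also left out, 372 without IVP 3209, and 1 or 2 without any of IVP 5841, MOET 3217, MOET 3218 and MOET 5932.

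**Figure D2:**
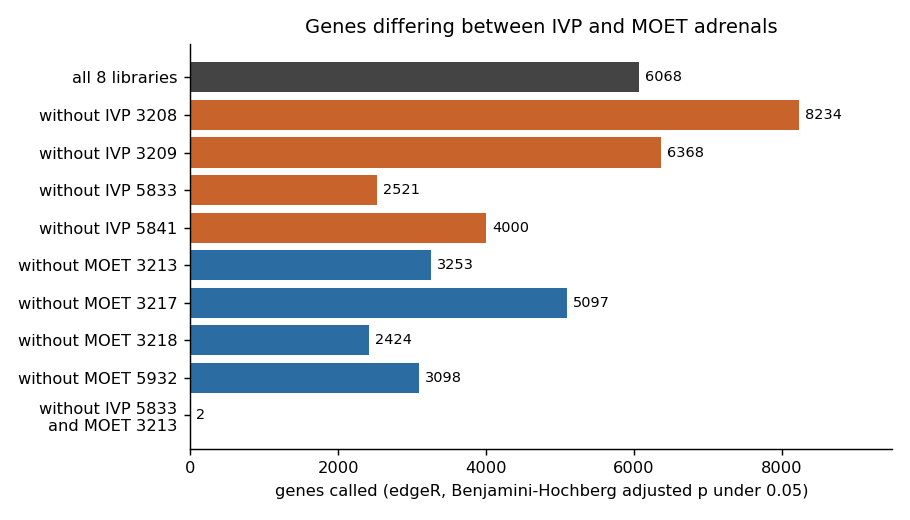
Number of genes called between IVP and MOET adrenals by edgeR's quasi-likelihood test (Benjamini-Hochberg adjusted p under 0.05) with all 8 libraries, without each calf in turn (orange IVP, blue MOET) and without both IVP 5833 and MOET 3213. The count falls from 6068 to 2 when both are left out.

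Calves of 1 origin differed among themselves, more so in IVP. The median over genes of the SD of log2 CPM (CPM, counts scaled to a common library total after TMM, prior count 2) was 0.29 in the 3 IVP and 0.13 in the 3 MOET adrenals, and the SD was larger in IVP for 79.7% of 15595 genes. With all 8 libraries the medians were 0.23 and 0.11. The ratio of the 2 medians was 2.15 with 8 libraries and 2.16 with 6, and 1.40 when IVP 3209 was left out of the 8. Dropping libraries at their group means raises both SDs and leaves the ratio in place, so 2.15 and 2.16 show no stability. IVP 3209 was the library farthest from the rest. Relative to the median of the other libraries among the 6, 1193 of 15437 genes lay over 2-fold above and 1822 over 2-fold below in IVP 3209. In the other 5 of the 6 libraries, 39 to 325 genes lay above and 67 to 566 below.

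IVP 3208 lay nearest to the MOET calves. Its median absolute log2 difference per gene was 0.15 to MOET 3217, 0.22 to MOET 3218 and 0.23 to MOET 5932, against 0.21 to IVP 5841 and 0.48 to IVP 3209. Within MOET the 3 pairs of calves 3217, 3218 and 5932 differed by 0.11 to 0.19. IVP 3208 was thus closer to MOET 3217 than to any other IVP adrenal. On the first principal component of the 8 libraries, which held 48.9% of the variance, IVP 3208 scored -10.3, the other 3 IVP libraries 22.7 to 71.7 and the MOET libraries -42.7 to -23.0.

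**Figure D3:**
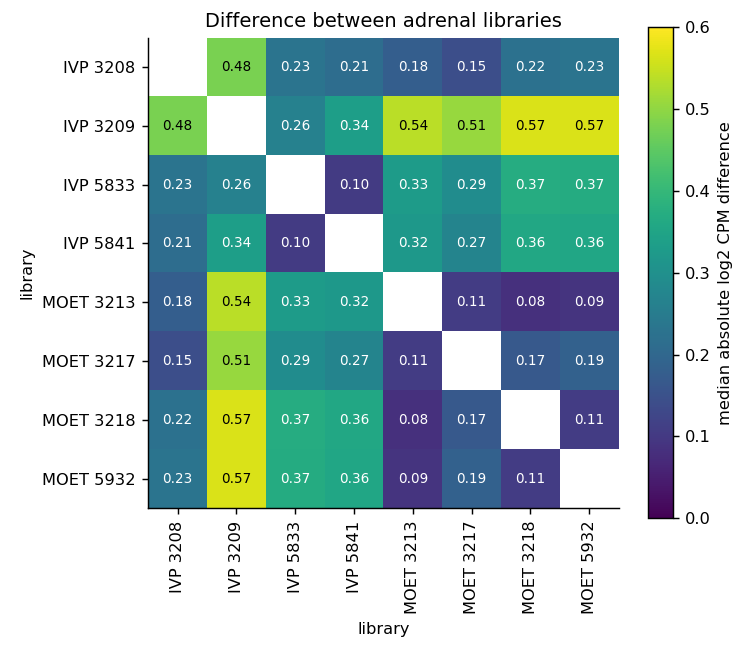
Median absolute difference in log2 CPM over 15437 genes between each pair of adrenal libraries (rows and columns are libraries, color and number give the difference). IVP 3209 differs most from all others, up to 0.57 from MOET 3218 and MOET 5932, and IVP 3208 is 0.15 from MOET 3217.

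Many small differences held in every pair of calves. Of 15437 genes, 6065 (39.3%) separated, meaning that the lowest CPM of one origin lay above the highest of the other in all 16 IVP to MOET pairs, 3132 higher in IVP (20.3%) and 2933 lower (19%). Without the 2 libraries, 6237 of 15595 (40.0%) separated in all 9 remaining pairs, and 6051 genes did so in both sets. Of the 6065 genes, 5208 were also among the 6068 called with 8 libraries. The gap between the nearest calves of the 2 origins was small, with a median of 0.12 on the log2 scale and quartiles of 0.05 and 0.22. It exceeded 1, a 2-fold gap, for 28 genes, 7 higher and 21 lower in IVP. The calves that bounded the gap were mostly the same: IVP 3208 was the IVP calf nearest to MOET for 81.8% of the 6065 genes, and MOET 3217 the MOET calf nearest to IVP for 65.4%. IVP 5833 was nearest for 14 genes and MOET 3213 for 179, as libraries at the mean of their group are rarely its extreme.

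Among the 6068 called genes, 860 did not separate. IVP 3208 lay inside the MOET range, or beyond it, for 725 of the called genes and MOET 3217 inside or beyond the IVP range for 683, while IVP 5833 did so for 1 and MOET 3213 for 20. Pair by pair, the direction of the call held for 90.6% of the 6068 genes between IVP 3208 and MOET 3217 and for 97.9% to 100% in the 15 other pairs. The genes were called from the same 8 libraries, so high shares are built in. This holds most for pairs with IVP 5833 or MOET 3213, which lie at their group means. Most of the larger differences separated, as did 85.8% of all 6068 called genes. Of the 262 called genes over 2-fold higher in IVP 215 separated, and of the 639 called genes over 2-fold lower 600 did. Being called in the same 8 libraries favors this in both sets.

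The direction of the differences followed the count level of the gene. Levels were bins of mean CPM over the 8 adrenals, which depend on transcript length as well as abundance, since lengths were not used here. Over all genes 20.8% were called higher and 18.5% lower with 8 libraries. Of 92 genes at 1000 CPM and over, 67 were called higher in IVP (72.8%) and 1 lower, with a median log2 fold change of 0.49. Of 1871 genes at 100 to 1000 CPM, 788 were called higher and 138 lower (median 0.17). Of 7705 genes at 10 to 100 CPM, 1863 were called higher and 1491 lower (median 0.03). The balance turned below 10 CPM, where 433 of 4656 genes at 1 to 10 CPM were called higher and 1149 lower (median -0.18), and 54 of 1113 genes under 1 CPM were called higher and 84 lower (median -0.11). Over all 15437 genes the median was 0.00. With 6 libraries edgeR called 0 genes at 1000 CPM and over, where 60 of 92 had an unadjusted p under 0.05, and its 2 calls lay at 100 to 1000 and at 1 to 10 CPM.

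**Figure D4:**
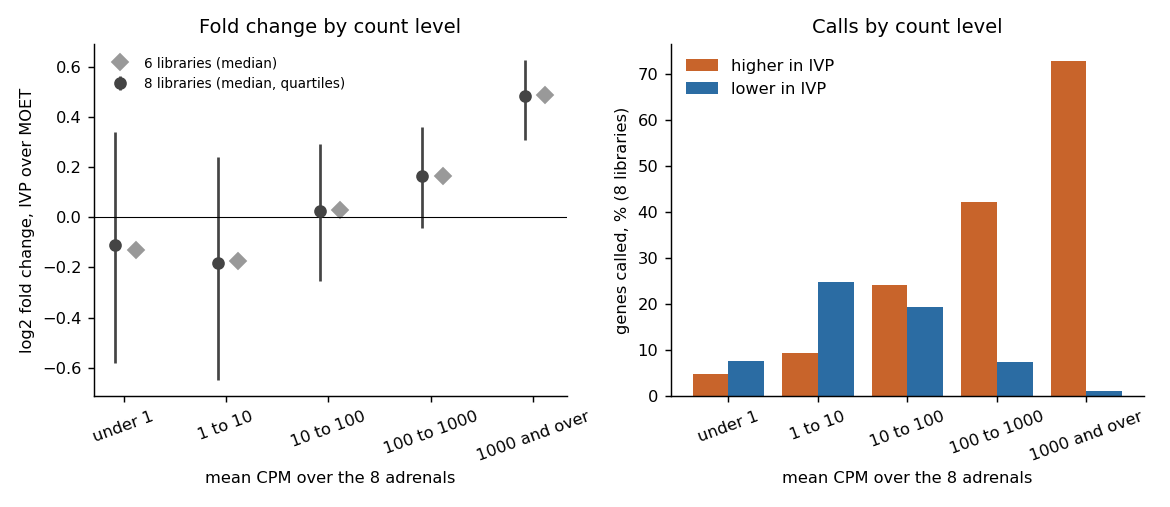
Left, median log2 fold change of IVP over MOET by mean adrenal CPM (points, bars are quartiles over genes; diamonds, the 6 libraries without IVP 5833 and MOET 3213); right, percent of genes called with 8 libraries in each direction. The median rises from -0.18 at 1 to 10 CPM to 0.49 at 1000 CPM and over, and the 6 libraries give medians of -0.17 and 0.49.

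With 6 libraries the medians were 0.49, 0.17, 0.03, -0.17 and -0.13 from the highest level to the lowest. With DESeq2 size factors they were 0.48, 0.16, 0.02, -0.19 and -0.12. Neither change could have altered the pattern much, since the 2 libraries lie at their group means and a size factor moves all genes alike. Large folds fell mostly among low counts. Of the 776 genes over 2-fold lower in IVP, called or not, 614 had under 10 CPM, and 2 had 100 CPM or more. Of the 348 genes over 2-fold higher, 241 had under 10 CPM. With 8 libraries, the SD over calves of the 92 genes at the top level was larger in IVP for 90.2%.

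The top level also took a larger share of all counts of tested genes in IVP, a measure without TMM scaling. The TMM factors differed by origin without overlap, at 0.895 to 0.972 in IVP and 1.02 to 1.10 in MOET libraries. The level at which the balance of higher and lower genes turned therefore depends on the scaling. Genes at 1000 CPM and over took 29.4%, 29.6%, 28.9% and 29.2% of counts in IVP 3208, 3209, 5833 and 5841. They took 25.4%, 26.7%, 25.8% and 24.2% in MOET 3213, 3217, 3218 and 5932. All IVP values lay above all MOET values. The means were 29.4 ± 0.210% and 25.6 ± 1.28% (SD, n = 3), and the 6 libraries gave a two-sided exact permutation p of 0.10, the smallest that 3 against 3 allows (adjusted p = 0.125 over the 5 levels). With 4 against 4 the exact permutation p was 0.0286, the smallest that this design allows (adjusted p = 0.0476). This p counts IVP 5833 and MOET 3213 as separate calves, although they lie at the mean of their group, so it overstates the evidence. Genes at 10 to 100 CPM moved the other way, with 28.4 ± 0.409% in IVP and 31.4 ± 1.01% in MOET (SD, n = 3, exact permutation p = 0.10, adjusted p = 0.125). Their median log2 fold change after TMM was 0.03, so share and fold change differed in direction there. Shares of a whole cannot all rise, so a fall at some level is built in. Genes at 100 to 1000 CPM took 40.4 ± 0.588% and 40.6 ± 0.376% (SD, n = 3, exact permutation p = 0.70).

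Among the 10 most counted genes, 5 separated, beside 39.3% of all genes and 64.1% of the 92 genes at 1000 CPM and over. The second of them was at 26629, 37514, 30581 and 29987 CPM in IVP 3208, 3209, 5833 and 5841, and at 19273, 22694, 18969 and 15910 CPM in MOET 3213, 3217, 3218 and 5932. Its log2 fold change was 0.70 (SE 0.14, edgeR adjusted p = 0.0119), and 0.71 with 6 libraries (edgeR adjusted p = 0.106). The tenth was at 6463, 9454, 7536 and 7543 CPM in IVP and at 3939, 4636, 3886 and 3257 CPM in MOET, in the same order of calves, a log2 fold change of 0.98 (SE 0.15, edgeR adjusted p = 0.00885, and 0.105 with 6 libraries). In both genes IVP 3209 was the highest library and MOET 5932 the lowest. The most counted gene of all was at 20891 to 38234 CPM in IVP and 26547 to 33034 CPM in MOET, with overlapping groups (log2 fold change -0.06, SE 0.18, edgeR adjusted p = 0.807).

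Genes were next grouped by tissue, from their mean log2 CPM over the 8 libraries of each tissue. Of 4559 genes at a similar level in all 4 tissues (broad, within 2-fold), 1292 were called higher (28.3%) and 587 lower (12.9%) with 8 libraries, beside 20.8% and 18.5% over all genes. Their median log2 fold change was 0.08, beside 0.00 over all genes. With 6 libraries edgeR called 0 broad genes, and 1312 of 4570 had an unadjusted p under 0.05. Of 8909 genes of mixed pattern, 1669 were called higher (18.7%) and 1968 lower (22.1%, median -0.06). That balance turned when 1 calf was left out, with 777 higher and 769 lower without IVP 5833 and 1192 higher and 1159 lower without IVP 5841. Of 1288 genes at least 8-fold lower in the adrenal than in another tissue, 135 were called higher (10.5%) and 227 lower (17.6%, median -0.06), and without IVP 3208 the counts were 256 and 258. Within this class, the 309 genes most read in the pituitary had 23 higher and 85 lower calls and a median of -0.32, and the 715 most read in the hypothalamus had 75 higher and 91 lower calls and a median of 0.02. The level pattern held within broad genes, where 340 of 757 at 100 to 1000 CPM were called higher and 59 lower, against 84 and 117 of 640 at 1 to 10 CPM.

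Genes typical of the adrenal differed in both directions and spread widely between calves. Of 87 adrenal-enriched genes, at least 8-fold above each other tissue, 9 were called higher and 11 lower, which is 22.99% beside 39.3% over all genes, and 18.4% of them separated. Their median SE was 0.25 against 0.14 over all genes, and the median SD over calves with 6 libraries was 0.58 in IVP and 0.26 in MOET. Of 594 genes that were 2- to 8-fold above each other tissue, 100 were called higher and 70 lower (28.6%). Of 227 genes shared by adrenal and testicle, both at least 4-fold above hypothalamus and pituitary and within 8-fold of each other, 20 were called higher and 24 lower (19.4%), with a median of -0.01. Of 56 genes shared in the same way by adrenal and hypothalamus, 6 were called higher and 8 lower (25%), with a median of -0.15. Of 32 shared by adrenal and pituitary, 0 were called higher and 4 lower (12.5%), with a median of -0.13. All these shares lay below the 39.3% over all genes.

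The 9 adrenal-enriched genes called higher had log2 fold changes of 1.05 to 1.43. The most counted of them was at 431, 1639, 860 and 604 CPM in IVP 3208, 3209, 5833 and 5841, and at 311, 273, 341 and 388 CPM in MOET 3213, 3217, 3218 and 5932. The groups did not overlap, but IVP 3208 lay close to MOET 5932 and IVP 3209 far above the rest. Its log2 fold change was 1.43 (SE 0.37, edgeR adjusted p = 0.0187, and 0.108 with 6 libraries). The 11 called lower had log2 fold changes of -1.24 to -0.47. The most counted of these was at 211, 101, 155 and 169 CPM in IVP and at 275, 315, 287 and 240 CPM in MOET, in the same order of calves, a log2 fold change of -0.81 (SE 0.20, edgeR adjusted p = 0.0160, and 0.106 with 6 libraries). The groups did not overlap there either, and IVP 3209 was the lowest library.

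IVP 5833 lacked part of this class. It had 0 or 1 counts for 18 of the 87 adrenal-enriched genes, and 17 of the 18 had at least 20 counts in each of the 6 libraries that did not stand apart. None of the 18 was among the 20 called genes. The most counted adrenal-enriched gene had 31328, 152610 and 63946 counts in IVP 3208, 3209 and 5841, 32523, 39252 and 57319 in MOET 3217, 3218 and 5932, 12251 in MOET 3213 and 0 in IVP 5833. For these 18 genes MOET 3213 was also low, at a median of 0.584 times the mean CPM of the other 3 MOET libraries, against 0.984 times for the other adrenal-enriched genes. The mean level of the 87 genes was 2.84 log2 CPM in IVP 5833 and 4.23 to 4.53 log2 CPM in the other 7. The 87 log2 fold changes had a median of 0.00 with 6 libraries and of -0.09 with 8.

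**Figure D5:**
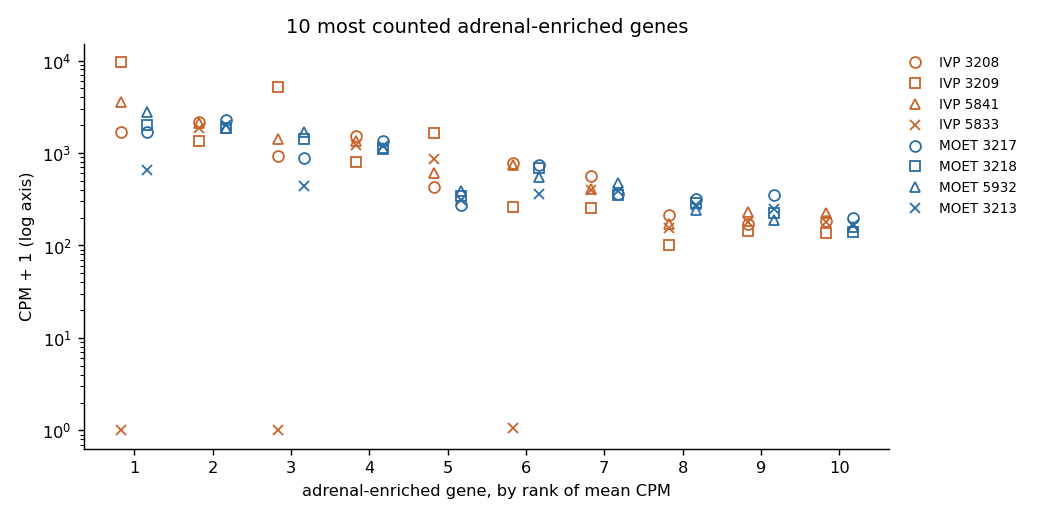
CPM + 1 (log axis) of the 10 most counted adrenal-enriched genes, ranked by mean CPM, in each adrenal library (orange IVP, blue MOET; crosses are IVP 5833 and MOET 3213). IVP 5833 is at or near 0 CPM for ranks 1, 3 and 6, and IVP 3209 is the highest library for ranks 1, 3 and 5 and the lowest for ranks 2, 4, 7, 8, 9 and 10.

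IVP 3209 moved adrenal-enriched genes both ways. In it 18 of the 87 genes lay over 2-fold above and 18 over 2-fold below the median of the other libraries among the 6, where each of these 5 had at most 4 above and 5 below. The most counted adrenal-enriched gene was at 9545 CPM in IVP 3209, against 1669 in IVP 3208, 3521 in IVP 5841 and 1706 to 2761 CPM in MOET 3217, 3218 and 5932. By contrast, another gene of the class had 161 counts in IVP 3209, against 2175 in IVP 3208, 489 in IVP 5841 and 2082 to 3035 in the 3 MOET libraries. Neither gene was called with 8 or with 6 libraries.

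Of the 4 genes given by ID, the pair that rose was read in IVP adrenals and almost not in MOET adrenals, and both of these genes were called with 8 and with 6 libraries. All 4 were picked for being called and separated with 8 libraries, so the call with 8 follows from the choice. ENSBTAG00000021565 had 20779, 22041, 5196 and 23963 counts in IVP 3208, 3209, 5833 and 5841, and 1, 0, 0 and 0 in MOET 3213, 3217, 3218 and 5932. IVP 5833 was the lowest of the IVP libraries, at 287 CPM against 1268 ± 143 CPM in the other 3 (SD, n = 3). Against a floor of 3 counts over the MOET group the 6 libraries put it at least 21892-fold higher, with an edgeR adjusted p of 3.29e-05, and of 3.75e-04 with 8 libraries. ENSBTAG00000014834 had 83, 100, 104 and 101 counts in IVP and 1, 0, 0 and 0 in MOET, in the same order of calves. It was at least 93-fold higher with 6 libraries, with an edgeR adjusted p of 0.0234, and of 3.02e-04 with 8. The single count in the MOET group lay in MOET 3213 for both genes. A further gene had 18, 17 and 22 counts in IVP 3208, 3209 and 5841 and 0 in MOET 3217, 3218 and 5932, with 1 count each in IVP 5833 and MOET 3213. It was too low to be tested with 8 libraries and did not pass with 6 (edgeR adjusted p = 0.105). In the other direction, 5 genes had at least 10 counts in each of MOET 3217, 3218 and 5932 and at most 1 in each of IVP 3208, 3209 and 5841. MOET 3213 itself had 0 or 1 counts for all 5, and none of them passed with 6 libraries (edgeR adjusted p = 0.105 for each). The most counted of them had 28, 60 and 60 counts in MOET 3217, 3218 and 5932. The same 0.105 recurs for other genes with 6 libraries, since Benjamini-Hochberg adjustment can give 1 value to many genes. It does not grade these genes singly.

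The pair that fell was called by edgeR with 8 libraries and without any 1 calf, but not with the 6 libraries, where the DESeq2 Wald test called both. The pair was picked for being called and separated with 8 libraries, so that call and the lack of overlap follow from the choice. Each fit without 1 calf also keeps IVP 5833, MOET 3213 or both. ENSBTAG00000037799 was at 5.17, 6.57, 6.29 and 7.27 CPM in IVP 3208, 3209, 5833 and 5841, and at 17.6, 18.6, 17.01 and 16.4 CPM in MOET 3213, 3217, 3218 and 5932. The origins lay far apart and the calves of each close together, at 6.33 ± 1.07 and 17.4 ± 1.14 CPM (SD, n = 3). Its log2 fold change was -1.46 (SE 0.12, edgeR adjusted p = 0.00367) with 8 libraries and -1.45 (SE 0.19, edgeR adjusted p = 0.105) with 6, where the DESeq2 Wald test gave an adjusted p of 7.78e-10. ENSBTAG00000017512, which is read more in hypothalamus and pituitary, was at 22.5, 21.0, 20.3 and 20.8 CPM in IVP and at 35.9, 34.0, 37.0 and 35.2 CPM in MOET adrenals, in the same order of calves. Its log2 fold change was -0.75 (SE 0.07, edgeR adjusted p = 0.00464) with 8 libraries and -0.72 (SE 0.12, edgeR adjusted p = 0.105) with 6, where the DESeq2 Wald test gave an adjusted p of 7.23e-06. In IVP adrenals it thus stood at 21.4 ± 0.955 CPM and in MOET adrenals at 35.4 ± 1.52 CPM (SD, n = 3), with no overlap.

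The IVP effect in the adrenal was also set against its mean in the other 3 tissues of the same calves. Over all 32 libraries, 6769 of 18242 genes differed (37.1%, edgeR quasi-likelihood test of the difference, Benjamini-Hochberg adjustment), 3415 with a higher and 3354 with a lower effect in the adrenal. Without adrenal IVP 5833 and the 4 libraries of MOET 3213, 75 of 18423 did (0.407%), 42 higher and 33 lower. Removing all 4 libraries of a calf left 2488 genes for IVP 5833 and 3089 for MOET 3213. It left 3813 for MOET 3218 and 4042 for IVP 5841. Among the 15437 genes tested in the adrenal, 64 differed with 27 libraries, 5 of them broad and 0 adrenal-enriched. Genes called higher in the IVP adrenal had median log2 fold changes of -0.25 in the hypothalamus, -0.09 in the pituitary and 0.08 in the testicle of the same calves. Those called lower had medians of 0.39, 0.12 and 0.05.

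By gene, the adrenal effect of ENSBTAG00000014834 differed from the other tissues both with 32 libraries (edgeR adjusted p = 7.63e-05) and with 27 (edgeR adjusted p = 0.0124). ENSBTAG00000021565 had 621 to 1215 counts in the hypothalamus, 3574 to 4211 in the pituitary and 814 to 1145 in the testicle of IVP calves, and at most 14 in any of these tissues of MOET calves. The difference of its adrenal effect from the other tissues did not pass (edgeR adjusted p = 0.0921). ENSBTAG00000037799 fell by 0.76 and ENSBTAG00000017512 by 0.72 more on the log2 scale in the adrenal than in the mean of the other tissues (edgeR adjusted p = 0.00872 and 0.00774), and with 27 libraries the values were -0.75 and -0.69 (edgeR adjusted p = 0.0784 and 0.0765). ENSBTAG00000037799 was also lower in the IVP pituitary (log2 fold change -1.09, edgeR adjusted p = 0.00572), where IVP calves had 37 to 57 counts and MOET calves 75 to 97. In the testicle its counts were 49 to 74 and 79 to 137 without overlap. That difference did not pass (edgeR adjusted p = 0.319). The pituitary and testicle fits both keep MOET 3213, which lies at the mean of its group in these tissues too. The pituitary p therefore overstates the evidence, and neither fit is given without that calf. The count ranges of both tissues stay the same when MOET 3213 is left out.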

How the data were processed

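RNA was read from 8 adrenal libraries, and 24 libraries of the other 3 tissues served the comparison between tissues. The deposited values are given as counts per Ensembl gene ID. The libraries that lie at the mean of their group scattered less than separately counted reads do. Whether the values of those libraries are raw counts was not tested. The labels' protocols describe non-stranded preparation after poly(A) selection and read filtering in SOAPnuke, so overlapping genes on opposite strands may share reads. STAR 2.7, HTSeq and bosTau9 are named in the submitters' processing notes. The annotation release, the counting settings and any later adjustment of the counts: not given in the sources used here.

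Genes were kept with filterByExpr (minimum count 10, minimum total count 15), scaled by TMM and tested with glmQLFTest in edgeR 4.0.16 (R 4.3.3, robust dispersion), with Benjamini-Hochberg adjustment at 0.05. The SE of a fold change is its size over the root of F. DESeq2 1.42.0, limma 3.58.1, Python 3.11.15 and matplotlib 3.10.9 were also used, and scripts were tested on simulated data. Intervals and floors cover counting error only, and total counts per library and 3 or 4 calves per origin limit precision.

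The gene lists, the level and tissue classes, the tests and the naming rule were all set with earlier results of these data known. The fits without IVP 5833 and MOET 3213, and the classes of genes shared by the adrenal with 1 other tissue, were added after the counts were seen. Named genes are the 2 per direction with the smallest p that were called and separated. Other genes were chosen by count rank. As 0 of 27607 IDs matched a symbol, the lists of pathways and cell type markers could not be run. The same animal number marks the 4 libraries of a calf, from the labels, so numbers pair tissues and not origins. The correlation of a calf's adrenal deviations with those in another tissue ran from -0.33 to 0.61 over 24 pairs. No 2 adrenal libraries were identical. The chi-square per degree of freedom between libraries of 1 origin was 5.16 to 98.7.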

Additional observations from a re-analysis of the deposited data

Results flagged for a closer look

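Measured against the other 3 adrenals of the origin, single libraries lay far out in 4 values. Chance places about 1 in 20 groups so far out in a continuous measure, a rate that does not hold for single counts. IVP 5833 had the lowest mean level of adrenal-enriched genes, at 2.84 log2 CPM, and the most genes with a count, 19884 against 19086 to 19146 in the other IVP adrenals. MOET 3213 held the only count of ENSBTAG00000014834 and of ENSBTAG00000021565 in the MOET group, which stands for 0.054 CPM in each case. A lone count beside 0 in all other libraries of a group is always flagged in this way.

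The adrenal effect differed from the mean effect in the other 3 tissues for 6769 genes with 32 libraries and for 75 without adrenal IVP 5833 and the 4 libraries of MOET 3213. Of the genes given by ID, the fitted difference was 8.16 on the log2 scale for ENSBTAG00000014834, a value that depends on the prior count because MOET is near 0. That gene was also near the floor in the other 3 tissues of both origins. The fitted difference was -0.76 for ENSBTAG00000037799 and -0.72 for ENSBTAG00000017512.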

How the results depend on the processing

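The 6068 adrenal calls became 2 without IVP 5833 and MOET 3213 and 2508 in DESeq2 on the same 6 libraries. They became 13121 in limma voom with quality weights, which gave MOET 3213 and IVP 5833 weights of 26.6 and 8.79 and the other 6 libraries 0.123 to 0.914. They became 2905 with age as a covariate, in which only calf 3213 lies far from the rest, and 3 with the score on the first component of within-group deviations in the other tissues, where the median fold of the 6068 genes went from 0.55 to 0.13 and 83.7% kept their sign. Without each calf in turn the count ran from 2424 to 8234, and the cause was not tested. DESeq2 size factors, its Wald test, keeping low counts, a joint fit of 32 libraries, a term for the animal number series and library sizes without the 100 most counted genes gave 4561 to 6773. The share of separated genes, 39.3%, ran from 38.9% to 58.8% without each calf. The ratio of IVP to MOET spread, 2.15, ran from 1.40 to 2.999. The difference from the other tissues, 6769 genes, became 75 without adrenal IVP 5833 and the libraries of MOET 3213, 2488 to 7784 without each calf, and 7234 with the calf as a replicate block, a pairing given by the animal numbers. No replicate block was possible between origins, which share no calf. The planned covariate of chromaffin cell markers was not run, as IDs could not be matched to symbols.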
